A study of Mus musculus with 6 samples.

Results

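The genes described here are 10 genes of the response to low oxygen and of glycolysis, followed by RNA-seq in mouse hippocampus: Hif1a, Egln3, Adm, Vegfa, Slc2a1, Hk2, Pfkfb3, Ldha, Pgk1 and Ndrg1. They were taken from the deposited table by gene name, and 8 of the 10 were found among its 41386 genes. Vegfa had no named row, but 1 unnamed row carried Vegfa in its KEGG text and had the expected neighbouring genes on each side; its values are given separately and are not counted among the 8. Pgk1 was not analysed here. All animals were male C57BL/6 mice of 56 days. In the ischemia/reperfusion group (I/R) the middle cerebral artery was blocked with a filament for 1.5 h, and flow was then restored for 24 h. The control group (sham) had the surgery without the blockage. Each group had 3 libraries, and the study's methods say that each was made from 3 pooled hippocampi of the operated side, so the spread between libraries is one between pools. The blockage acts on the whole territory of the artery, and a library averages over all cells of the hippocampus.

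Cells sense oxygen through HIF-1, a transcription factor made of an oxygen-labile alpha subunit, encoded by Hif1a, and a stable beta subunit, encoded by Arnt. In the presence of oxygen, prolyl hydroxylases of the Egln family mark the alpha subunit for breakdown through the VHL protein, so that HIF-1 is regulated largely at the protein level and mRNA counts do not measure its activity. When oxygen falls, HIF-1 binds the short DNA core ACGTG or GCGTG near its target genes. These targets include genes for glucose uptake and glycolysis, which make ATP without oxygen, and genes for peptides that widen vessels or make them grow. In the brain, neurons and glia share this metabolism, with lactate passed between cells by monocarboxylate transporters.

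The promoters of the 3 members with the largest rises, Adm, Hk2 and Egln3, and of Ldha, a textbook HIF target that was not called, are printed so that the core letters can be seen. Each line holds the 250 bases before an annotated start, 5′ to 3′ on the strand of the gene, from RefSeq on GRCm38.p6. Capitals mark ACGTG or GCGTG on either strand. The windows are chr7:110627407-110627656 for Adm (plus strand), chr6:82774455-82774704 for Hk2 (minus), chr12:54203875-54204124 for Egln3 (minus) and chr7:46845554-46845803 for Ldha (plus). None of the 4 overlapped an exon of the GENCODE annotation of that build.
Adm: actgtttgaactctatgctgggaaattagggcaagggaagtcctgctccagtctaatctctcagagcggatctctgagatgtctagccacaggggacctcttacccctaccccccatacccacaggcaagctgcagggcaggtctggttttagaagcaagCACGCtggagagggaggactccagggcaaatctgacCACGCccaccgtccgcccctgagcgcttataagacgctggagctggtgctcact
Hk2: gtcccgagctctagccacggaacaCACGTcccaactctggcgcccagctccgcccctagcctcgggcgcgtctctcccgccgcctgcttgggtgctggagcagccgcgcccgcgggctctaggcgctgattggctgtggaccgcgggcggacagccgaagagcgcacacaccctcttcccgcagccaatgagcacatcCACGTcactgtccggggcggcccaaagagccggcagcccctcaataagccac
Egln3: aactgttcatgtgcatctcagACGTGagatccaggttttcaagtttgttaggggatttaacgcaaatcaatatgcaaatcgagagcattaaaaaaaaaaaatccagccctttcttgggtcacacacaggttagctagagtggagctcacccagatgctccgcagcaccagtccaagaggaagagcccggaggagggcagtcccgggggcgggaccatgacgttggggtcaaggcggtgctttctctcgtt
Ldha: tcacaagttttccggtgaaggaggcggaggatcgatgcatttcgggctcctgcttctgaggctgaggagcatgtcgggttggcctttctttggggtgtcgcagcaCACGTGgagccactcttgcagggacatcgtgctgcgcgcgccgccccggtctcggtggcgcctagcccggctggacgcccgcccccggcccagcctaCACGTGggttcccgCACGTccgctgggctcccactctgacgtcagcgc

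Counting the base just before the start as -1, a match began at -90 and at -54 in Adm, at -226 and at -52 in Hk2 and at -229 in Egln3. Ldha held 5 matches before the start, beginning at -145, -144, -48, -47 and -34, and another 2 in the 50 bases after it. Its pairs of adjacent matches are the letters CACGTG, which read as the core on both strands and are also those of the E-box bound by other transcription factors. Ldha has another RefSeq start, after chr7:46846832-46847081, with 2 matches in its window, of which 1, at -59, lay before the start. The end of that window lay in a GENCODE transcript of Ldha, and the end of the printed one did not. RefSeq windows of 300 bases, 250 before and 50 after the start, were given for 9 of the 10 genes, all but Ndrg1, and all 9 had a match in at least 1 window (11 of 12 windows). These letters are common: 43.8% of 32851 windows of that length had a match, and 69.2% of the 9690 windows with a GC content of at least 60%. Windows with 4 or more matches, as in 1 window each of Ldha and Pfkfb3, were 3.86% of windows of any GC content. That share was not computed for windows rich in GC, as these were (67.33% for Ldha and 61.0% for Pfkfb3). The most matches in any window of a gene were 7 for Ldha, 4 for Pfkfb3, 3 for Hif1a, 2 for Adm, Hk2, Slc2a1, Vegfa and Pgk1, and 1 for Egln3. The letters CACGTG, which count as 2 adjacent matches, also occur in those windows of Pfkfb3 and Hif1a. The window without a match was a Vegfa window whose end lay in GENCODE transcripts of that gene. The Vegfa window with 2 matches overlapped a Vegfa exon, and its end was not in those transcripts. The windows of Pfkfb3 and Slc2a1 also overlapped an exon of the same gene. A match is a run of letters and not a measured binding site.

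Library totals were 37493042 to 44788547 counts, and 3 counts, the floor used here, corresponded to 0.0659 to 0.0872 CPM, the counts relative to the scaled library size. Hippocampal markers (Prox1, Fibcd1, C1ql2 and 5 others) were detected in every library. Their summed level was 390, 800 and 883 CPM in I/R replicates 1, 2 and 3 and 1638 to 1703 CPM in sham. I/R replicate 1 was thus well below the other I/R libraries. A pair of libraries stood apart: the summed choroid plexus markers were 36.1 CPM in I/R replicate 3 and 39.0 CPM in sham replicate 1, and 1618 to 4488 CPM in the other 4. Without both of them, with fewer libraries in the fit, the calls of Hif1a, Arnt2, Crebbp, Pdp2, Slc2a4, Slc2a10, Slc16a3, Bnip3, Mxi1, Kdm3a, Plod1, Vldlr, Ndrg2 and Eno1 and of the markers Ocln, Aqp4 and C1ql2 were lost among the genes named in the text. Library scaling also bears on every direction given here. TMM, the scaling used, had factors of 1.06 to 1.15 in I/R and 0.908 to 0.920 in sham, and the median log2 fold change of all genes was 0.03 with it and 0.28 with library size only.

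Of the 8 members, 5 were higher in I/R (Adm, Hk2, Egln3, Pfkfb3 and Hif1a), 1 was lower (Ndrg1) and 2 were not called (Slc2a1 and Ldha). A gene was called when its Benjamini-Hochberg adjusted p from edgeR was under 0.05 with a fold change above 1.2, and by that rule 41.8% of 18569 genes tested were called, 21.8% higher and 19.9% lower. The groups did not overlap in 7 of the 8 members, where 57.4% of all tested genes did not overlap. The members' median log2 fold change was 0.45. With library size only, 45.0% of all genes were called (34.1% higher and 10.9% lower) and 7 members were higher. With a fold change over 2, 10.2% of all genes were higher and 4.67% lower, and of the members Adm and Hk2 were higher and none was lower. Adm and Hk2 changed by more than 1 on the log2 scale and the other 6 members by less.

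**Figure D1:**
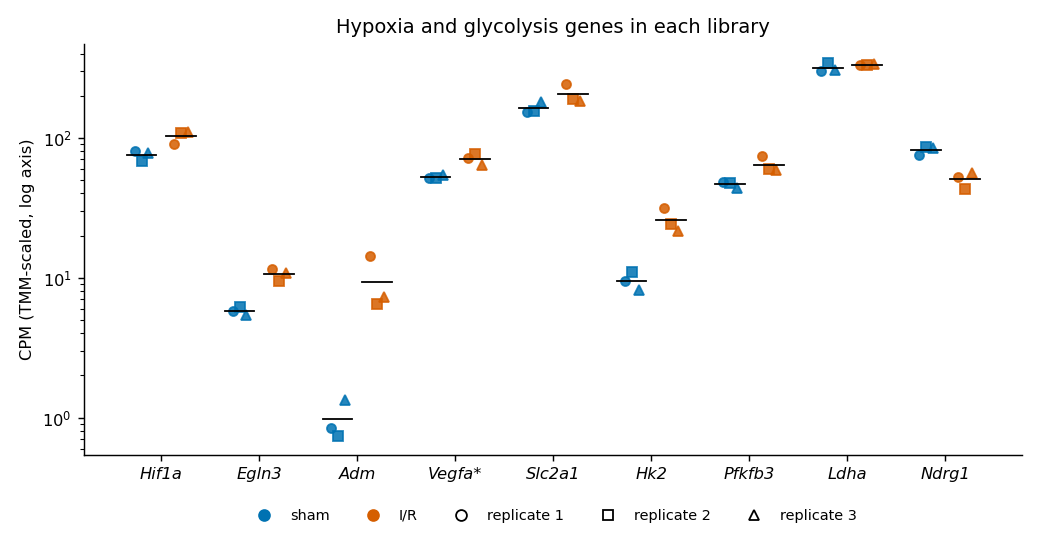
CPM of each gene (log axis) in the 3 sham libraries (blue) and the 3 I/R libraries (orange), with marker shapes for replicates and a line at the group mean; the asterisk marks the Vegfa row identified from its KEGG text. The groups are separate for every gene but Ldha, and Ndrg1 is the gene that lies lower in I/R.

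Levels between genes can be compared in FPKM, which divides by gene length. The order of genes depends on the length taken. The deposited FPKM used 2059 bases for Hk2 and 1022 for Ndrg1, where the length column gives 5075 and 4049. For Egln3 both have 2632. In sham, Ldha was the highest at 297 ± 20.9 FPKM (SD, n = 3 here and below), followed by Slc2a1 at 87.4 ± 8.17, Ndrg1 at 73.2 ± 5.06, Hif1a at 38.0 ± 3.66, Vegfa at 32.9 ± 1.12, Pfkfb3 at 19.3 ± 0.970, Hk2 at 4.22 ± 0.594, Egln3 at 2.01 ± 0.113 and Adm at 0.850 ± 0.282. Of these neighbours, the libraries of Hif1a and Vegfa overlapped and all others did not. In I/R, Ldha at 373 ± 14.7 FPKM and Slc2a1 at 132 ± 26.9 stayed on top. Hif1a (61.1 ± 3.73), Ndrg1 (54.2 ± 8.05) and Vegfa (53.1 ± 5.89) then overlapped in turn, Pfkfb3 was at 31.8 ± 6.02, Hk2 (13.8 ± 3.42) and Adm (9.80 ± 4.99) overlapped, and Egln3 was last at 4.41 ± 0.597. The 3 genes with the largest rises were therefore the 3 with the lowest levels in sham.

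Hif1a, the alpha subunit itself (chromosome 12, 71559315 to 71598947 on the BALB/cJ assembly of the deposited table), had 4090, 4287 and 4368 counts in replicates 1, 2 and 3 of I/R, against 3156, 2758 and 2668 counts in those of sham. These were 89.9, 107 and 109 CPM after I/R against 80.8, 67.9 and 77.5 CPM in sham. All I/R libraries were above all sham libraries, with I/R replicate 1 the lowest of its group. The log2 fold change was 0.44 ± 0.11 (SE, adjusted p = 0.0140, edgeR). The call rested on few libraries: the adjusted p from edgeR was 0.0622 without I/R replicate 2, 0.0521 without I/R replicate 3, 0.0677 when sham replicate 2 and 0.0509 when sham replicate 3 was left out, and 0.0746 without both libraries low in choroid plexus RNA. An opposite-strand gene, Gm15283, overlaps Hif1a and had at most 57 counts.

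The other alpha subunits were not called. Epas1 (HIF-2α, abundant in endothelium) was at 0.02 (SE 0.15, adjusted p = 0.935, edgeR) and Hif3a at -0.07 (SE 0.14, adjusted p = 0.726, edgeR) on the log2 scale, and the sign of each changed with the scaling or the libraries used. Of the summed FPKM of these 3 genes, Hif1a held 48.8, 57.1 and 61.2% after I/R against 51.2, 46.9 and 46.5% in sham, so the groups overlapped (p = 0.2 by exact permutation, two-sided). Among the beta subunits, Arnt was at 0.25 (SE 0.10, adjusted p = 0.0839, edgeR), and Arnt2, the form typical of neurons, was lower at -0.36 (SE 0.10, adjusted p = 0.0235, edgeR), a call that 8 of 18 alternatives did not give.

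Egln3 encodes the prolyl hydroxylase PHD3, which is itself a HIF target (chromosome 12, 51490262 to 51518699). It had 525, 381 and 430 counts after I/R against 226, 250 and 187 in sham, that is 11.5, 9.53 and 10.8 CPM against 5.79, 6.15 and 5.44 CPM. Each I/R library was well above each sham library and the replicates were close. The log2 fold change was 0.87 ± 0.14 (SE, adjusted p = 0.00277, edgeR), and all 18 alternatives gave the call. Egln1 and Egln2, the other hydroxylases of the family, were both at -0.22 (SE 0.07 and 0.09) and were not called, and both had small positive values with library size only. The share of Egln3 in the summed FPKM of the 3 hydroxylases was 4.32, 3.99 and 4.40% after I/R against 2.12, 2.04 and 1.93% in sham, a difference of 2.21 percentage points. A share within a library does not depend on how libraries are scaled; 8 such shares were compared, and this one had p = 0.1 by a two-sided exact permutation test, the lowest value that 3 libraries against 3 allow.

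Of 13 genes listed for the HIF pathway and oxygen sensing, 3 were higher (Egln3, Hif1a and Crebbp, a coactivator, at 0.33, SE 0.08) and 1 was lower (Arnt2), with a median of 0.02, where 21.8% of all genes were higher and 19.9% lower. The call of Crebbp was lost in 5 of 18 alternatives (edgeR adjusted p of 0.0519 to 0.0884), among them the fits without I/R replicate 2, sham replicate 1 or sham replicate 2. With library size only, 6 were higher and 0 lower. Vhl (-0.15, SE 0.09), Hif1an, which encodes the asparaginyl hydroxylase FIH (0.09, SE 0.09), Cited2 (0.06, SE 0.08) and Ep300 (-0.01, SE 0.08) were not called.

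Adm had the largest change of the members. It encodes adrenomedullin, a peptide that widens vessels (chromosome 7, 110985576 to 110987735). Its counts were 645, 257 and 290 after I/R against 33, 30 and 46 in sham, or 14.2, 6.43 and 7.25 CPM against 0.845, 0.738 and 1.34 CPM. The lowest I/R library was above the highest sham library by a wide margin, and I/R replicate 1 had 2.07 times the mean of the other I/R replicates. The log2 fold change was 3.26 ± 0.39 (SE, adjusted p = 0.000879, edgeR), a fold of 9.58. Without I/R replicate 1 it was 2.82, and over 18 alternatives it ran from 2.46 to 3.54, all called higher.

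Adrenomedullin receptors are formed by the product of Calcrl with that of Ramp2 or Ramp3. Calcrl was higher at 0.85 (SE 0.17, adjusted p = 0.00533, edgeR). Ramp2, the main endothelial partner of Calcrl, was at -0.43 (SE 0.16, adjusted p = 0.0565, edgeR) and was not called. Ramp3 was at -0.38 (SE 0.23, adjusted p = 0.221, edgeR) and was not called either. Ramp1, the partner of Calcrl in the receptor for another peptide, CGRP, was lower at -0.64 (SE 0.13, adjusted p = 0.00664, edgeR). The ligand and the common receptor subunit were thus higher in I/R and no Ramp gene was.

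The row identified as Vegfa, the growth factor that drives vessel growth and leak (chromosome 17, 45814400 to 45829773), had 3268, 3071 and 2540 counts after I/R against 1999, 2095 and 1865 in sham, or 71.8, 76.8 and 63.5 CPM against 51.2, 51.5 and 54.2 CPM. The groups were separate, and the log2 fold change of 0.43 (SE 0.09, adjusted p = 0.00774, edgeR) was called in all 18 alternatives. Vegfb fell by 0.67 on the log2 scale (SE 0.09, adjusted p = 0.00129, edgeR), whereas Vegfc (-0.01, SE 0.22) and Vegfd (-0.28, SE 0.34) were low and not called. The share of Vegfa among these ligands was higher in each I/R library than in each sham library. Vegfa held 58.5, 59.1 and 53.2% of their summed FPKM after I/R against 39.4, 37.3 and 40.1% in sham (p = 0.1 by exact permutation, the lowest value possible).

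Of 19 tested genes for VEGF, adrenomedullin and angiopoietin ligands and receptors, 8 were higher and 3 lower, with a median of 0.43. Among all genes tested, 21.8% were higher and 19.9% lower. Angpt2, an angiopoietin that loosens vessels, was at 25.8, 15.5 and 10.3 CPM after I/R against 2.15, 2.66 and 2.09 CPM in sham, which gave 2.90 on the log2 scale (SE 0.34, adjusted p = 0.000849, edgeR), while Angpt1 was not called at 0.18 (SE 0.21). All 3 VEGF receptor genes rose, Flt1 by 0.72 (SE 0.13), Kdr by 0.93 (SE 0.22) and Flt4 by 1.52 (SE 0.29). Without I/R replicate 1, Kdr was at 0.61 and Flt4 at 1.10. The co-receptor gene Nrp1 was lower at -0.84 (SE 0.15), as were Vegfb and Ramp1. Endothelial markers moved with this list: their summed level was 302 to 454 CPM in I/R and 231 to 239 CPM in sham, with 5 of 8 called higher (Pecam1, Cdh5, Esam, Emcn and Cldn5) and 2 lower (Slco1a4 and Ocln, calls lost in 4 and 8 of 18 alternatives). Their part in the result was not tested. In tissue libraries, more cells of a type and more RNA per cell cannot be told apart.

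**Figure D2:**
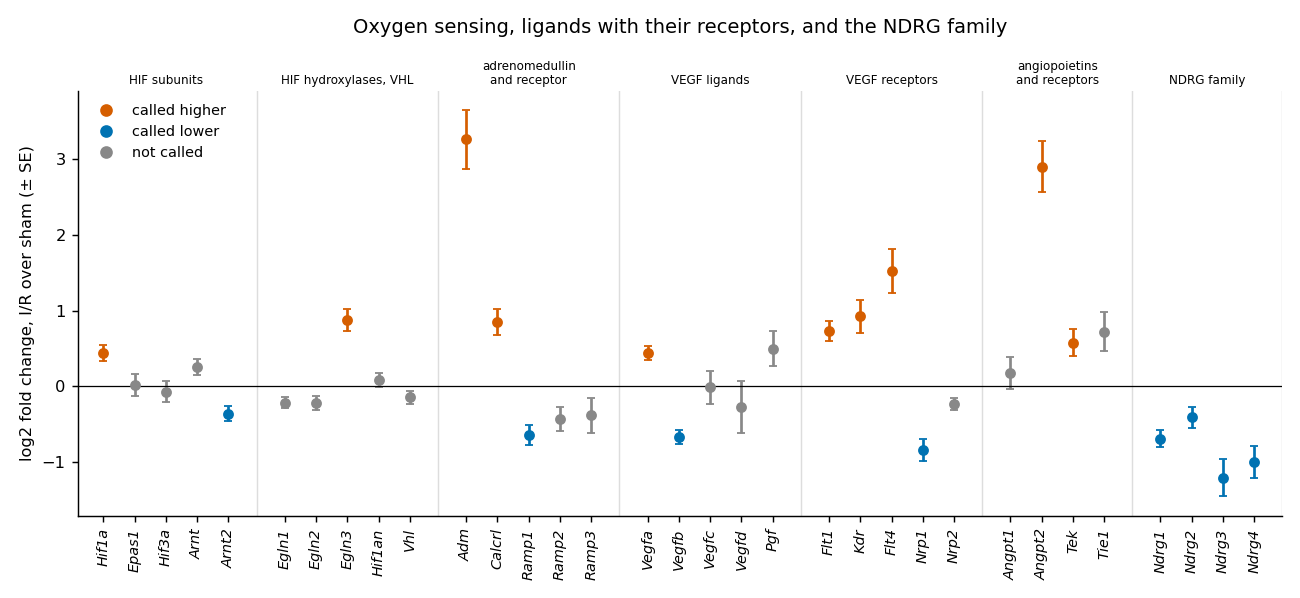
Log2 fold change of I/R over sham (± SE, 3 libraries a group) for the HIF subunits, their hydroxylases, the vascular ligands with their receptors and the NDRG family; orange genes were called higher, blue lower, grey not called. Adm and Angpt2 lie far above the rest, Egln3 is the raised hydroxylase, and all 4 NDRG genes are below 0.

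Slc2a1 encodes GLUT1, the glucose transporter of the blood-brain barrier and of astrocytes (chromosome 4, 116177356 to 116207483). Its counts were 10993, 7564 and 7368 after I/R against 5991, 6324 and 6200 in sham, and its levels 242, 189 and 184 CPM against 153, 156 and 180 CPM. The groups did not overlap, but I/R replicates 2 and 3 were only just above sham replicate 3. At a log2 fold change of 0.33 (SE 0.13, adjusted p = 0.0751, edgeR) it was not called. Library size only gave 0.59 and a call (adjusted p = 0.0133, edgeR), and without I/R replicate 1 the value was 0.19. Slc2a3, the neuronal transporter GLUT3, was lower at -0.58 (SE 0.13, adjusted p = 0.00843, edgeR). Slc2a1 consequently took 71.8, 59.8 and 58.8% of the summed FPKM of the pair after I/R against 46.6, 46.3 and 51.5% in sham, a difference of 15.3 points (p = 0.1 by exact permutation, the lowest value possible).

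Hk2 encodes an inducible hexokinase, the enzyme that traps glucose in the cell (chromosome 6, 80524241 to 80573688). It had 1438, 966 and 868 counts after I/R against 368, 444 and 280 in sham, or 31.6, 24.2 and 21.7 CPM against 9.43, 10.9 and 8.14 CPM. All I/R libraries were well above all sham libraries, with I/R replicate 1 highest. The log2 fold change was 1.44 ± 0.18 (SE, adjusted p = 0.000971, edgeR), a fold of 2.72, and it was called in all 18 alternatives. Hk3, the hexokinase of leukocytes, was at 24.1, 8.73 and 11.2 CPM after I/R against 1.26, 1.53 and 0.814 CPM in sham, which gave 3.61 on the log2 scale (SE 0.44, adjusted p = 0.000948, edgeR). Without I/R replicate 1 it was at 3.04. Hk1, the main brain form, was lower at -0.55 (SE 0.13, adjusted p = 0.0117, or 0.0542 by edgeR without sham replicate 2).

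Even so, Hk1 remained the bulk of the hexokinase mRNA, at 262, 307 and 314 FPKM after I/R against 349, 379 and 362 FPKM in sham. Hk2 made up 5.97, 3.85 and 3.37% of the summed FPKM of the 3 genes after I/R against 1.19, 1.25 and 0.991% in sham, a difference of 3.25 points (p = 0.1 by exact permutation, the lowest value possible). Markers of infiltrating cells moved with Hk3. The summed monocyte and macrophage list was 65.7 to 120 CPM in I/R and 6.17 to 8.10 CPM in sham (5 of 6 tested higher, 0 lower), with Plac8 at 0 in all sham libraries. The neutrophil list was 6.78 to 32.8 CPM in I/R and 0.436 to 1.74 CPM in sham, with Ly6g, Elane, Ngp and Cxcr2 at 0 in all sham libraries. Of its 10 genes 5 passed the count filter, 4 of them higher and 0 lower. A gene near 0 in sham, in either list, could pass only through its I/R counts, so higher was nearly its only possible call. The calls of S100a9 and Retnlg were lost in 2 of 17 alternatives each and that of Mmp8 in 4 of 16. Both lists were highest in I/R replicate 1. So were Hk3, the summed endothelial markers and 5 of the 8 members (Adm, Hk2, Slc2a1, Pfkfb3 and Egln3), while 3 members were highest in I/R replicate 3. Among all genes tested, 21.8% were higher and 19.9% lower. The part of infiltrating cells in the results was not tested.

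Pfkfb3 encodes a kinase that makes the activator of phosphofructokinase and so speeds glycolysis (chromosome 2, 8478833 to 8563224). It had 3389, 2380 and 2334 counts after I/R against 1887, 1927 and 1509 in sham, or 74.5, 59.5 and 58.4 CPM against 48.3, 47.4 and 43.9 CPM. All I/R libraries were higher, and the log2 fold change was 0.46 ± 0.11 (SE, adjusted p = 0.0134, or 0.0634 by edgeR without sham replicate 3). Its paralog Pfkfb4 rose by 1.24 (SE 0.21, adjusted p = 0.00304, edgeR), from 11.6, 11.7 and 12.6 CPM in sham to 38.6, 23.9 and 22.2 CPM in I/R. Among Pfkfb1, Pfkfb3 and Pfkfb4 the share of Pfkfb3 was therefore smaller in I/R, at 59.8, 65.3 and 66.9% against 75.7, 74.9 and 72.7% in sham, a difference of -10.4 points (p = 0.1 by exact permutation, the lowest value possible). Pfkfb2 was not analysed here.

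Ldha encodes the lactate dehydrogenase subunit that favours lactate formation (chromosome 7, 46268264 to 46282359). Its counts were 15005, 13300 and 13376 after I/R against 11638, 13989 and 10520 in sham, and its levels 330, 333 and 334 CPM against 298, 344 and 306 CPM. Sham replicate 2 was above all I/R libraries, so the groups overlapped, and the log2 fold change was 0.07 ± 0.10 (SE, adjusted p = 0.596, edgeR). With library size only it was 0.33 and called higher (adjusted p = 0.0220, edgeR). Ldhb, the subunit that favours pyruvate, was at 211, 268 and 243 CPM after I/R against 340, 406 and 375 CPM in sham, which gave -0.63 on the log2 scale (SE 0.13, adjusted p = 0.00556, edgeR).

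The balance of the subunits differed between groups although Ldha was not called. Ldha held 61.6, 56.1 and 58.6% of the summed FPKM of the pair after I/R against 47.4, 46.6 and 45.6% in sham, a difference of 12.2 points (p = 0.1 by exact permutation, the lowest value possible), and leaving out any library gave 10.8 to 13.6 points. Of the 50-base stretches of the transcripts in GENCODE, 9.03% of Ldha and 21.0% of Ldhb also occur in another gene, so the counts of both are less certain than those of Hk2, Adm and Egln3, which share none.

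**Figure D3:**
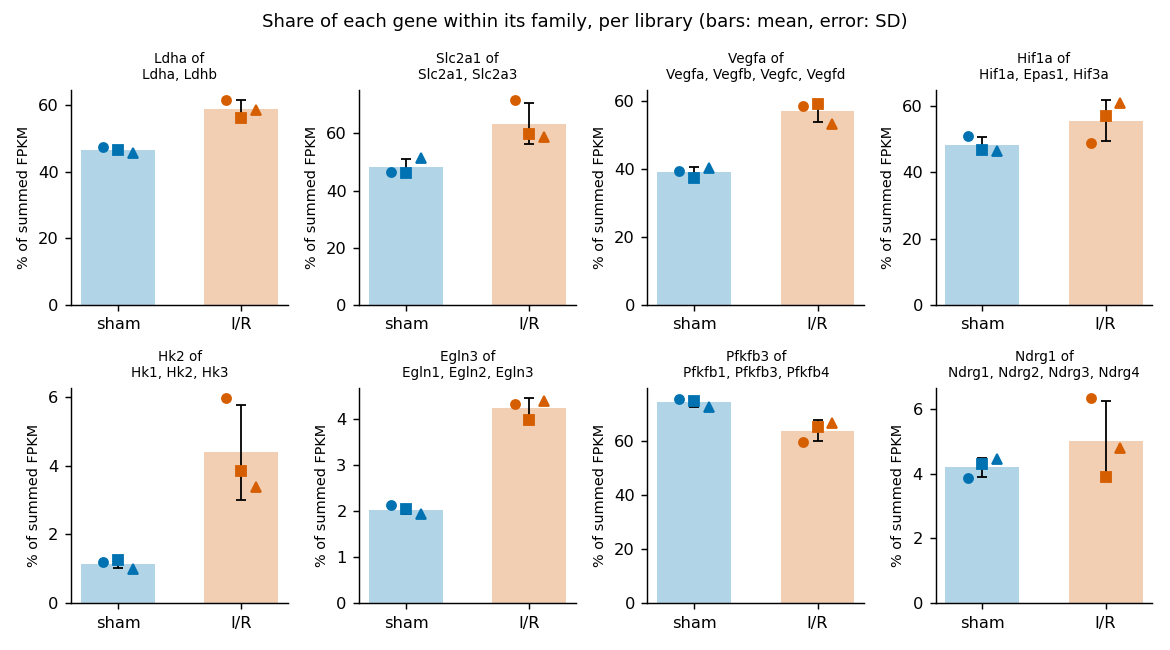
Share of each gene in the summed FPKM of its family, in percent, for each sham (blue) and I/R (orange) library; bars are means and error bars SD of 3 libraries, each panel with its own axis from 0. The shares of Ldha, Slc2a1, Vegfa, Hk2 and Egln3 are higher in all I/R libraries and that of Pfkfb3 lower, while Hif1a and Ndrg1 overlap.

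Most other enzymes of glycolysis were lower in I/R. Of 19 tested, 2 were higher (Hk2 and Hk3) and 11 lower, with a median of -0.52, where 21.8% of all genes were higher and 19.9% lower. Gapdh and Pgk1, which act between the aldolases and Pgam1, were not analysed here. The enzymes downstream of the hexokinases gave no gene called higher: Pfkl was lower at -1.13 (SE 0.28, adjusted p = 0.0149, edgeR) and Eno2, the neuronal enolase, at -0.93 (SE 0.23, adjusted p = 0.0142, edgeR), whereas Pfkp (-0.05, SE 0.09) and Pkm (-0.35, SE 0.15) were not called. With library size only the counts were 3 higher and 7 lower and the median -0.27, and without 1 library the lower genes numbered 5 to 12. Without sham replicate 2 the edgeR adjusted p was 0.0544 for Pfkl and 0.0529 for Eno2. Pgam1, Eno1 and Pkm share 25.8 to 36.2% of their 50-base stretches with other genes and are uncertain. In the deposited GO annotation, glycolytic process had 49 tested genes, 7 higher and 16 lower, with a median of -0.22. Its balance turned to 13 higher and 8 lower with library size only, with a median of 0.04.

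**Figure D4:**
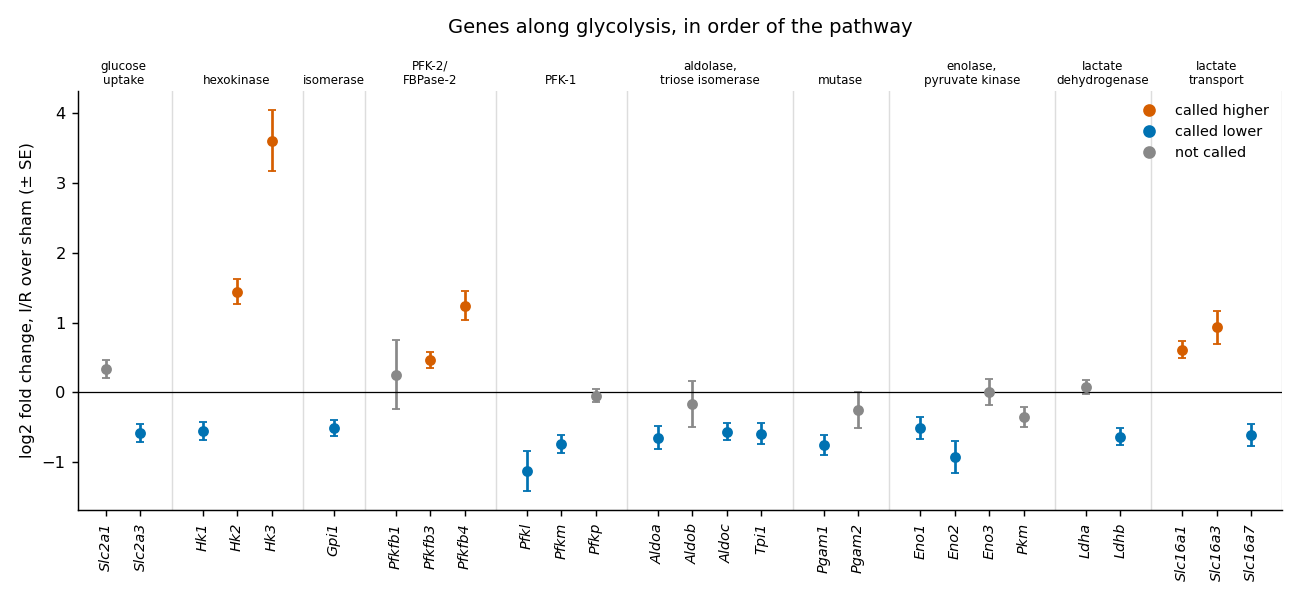
Log2 fold change of I/R over sham (± SE, 3 libraries a group) for genes from glucose uptake to lactate transport, in the order of the pathway; orange genes were called higher, blue lower, grey not called. The raised genes are Hk2 and Hk3, Pfkfb3 and Pfkfb4, and the lactate transporters Slc16a1 and Slc16a3. No called enzyme among those shown between phosphofructokinase and lactate dehydrogenase lies above 0. Gapdh and Pgk1 are not shown.

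The enzymes that steer pyruvate and glucose were split. Of 11 tested regulators of glycolysis and of pyruvate dehydrogenase, 3 were higher (Pfkfb4, Pfkfb3 and Pdk4) and 6 lower, with a median of -0.40. The shares over all genes were 21.8% higher and 19.9% lower. Pdk4, a kinase that shuts off pyruvate dehydrogenase, rose by 1.10 (SE 0.20, adjusted p = 0.00423, edgeR), whereas Pdk2 was lower at -0.95 (SE 0.15) and the phosphatase gene Pdp2 at -0.55 (SE 0.16). Pdk1, often listed as a HIF target, was also lower at -0.54 (SE 0.15, adjusted p = 0.0217, edgeR). All 18 alternatives gave the calls of Pdk4 and Pdk2, but that of Pdp2 was lost in 8 and that of Pdk1 in 6, with library size only and without sham replicate 1 or 3 for both, without I/R replicate 2 for Pdp2 and without sham replicate 2 for Pdk1. With library size only, 3 genes of this list were higher and 1 lower.

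Of 14 glucose and lactate transporters, 3 were higher and 6 lower, with a median of -0.60 (-0.35 with library size only, where 4 were higher and 4 lower). For these and for the glycogen genes below, the shares over all genes were 21.8% higher and 19.9% lower. With library size only they were 34.1% and 10.9%. The lactate transporters Slc16a1 (MCT1) and Slc16a3 (MCT4, a HIF target) rose by 0.61 (SE 0.12) and 0.93 (SE 0.24), while the neuronal form Slc16a7 (MCT2) was lower at -0.61 (SE 0.16). Slc2a5, which in brain is known from microglia, was at 0.154, 0.575 and 0.525 CPM after I/R against 3.69, 3.81 and 4.10 CPM in sham, which gave -3.22 on the log2 scale (SE 0.42, adjusted p = 0.00127, edgeR). Slc2a4 (-1.32, SE 0.35) was lower and Slc2a10 (0.88, SE 0.26) higher, both at few counts. Of these calls, Slc2a10 was lost in 5 of 18 alternatives (edgeR adjusted p of 0.0565 to 0.0928, among them without I/R replicate 1, at 0.62, or any sham library). Slc2a4 was lost in 3 (0.0602 to 0.0794, among them without sham replicate 1 or 2, edgeR adjusted p), Slc16a3 in 3 (0.0607 to 0.0795, among them without sham replicate 1 or 3) and Slc16a7 in 4, among them library size only and without sham replicate 1. Among 11 glycogen genes 2 were higher and 5 lower, with a median of -0.19 (2 higher, 3 lower and 0.06 with library size only). The phosphoglucomutase row named Pgm1 in the table, on chromosome 5, rose by 1.12 (SE 0.15), and the row named Pgm2, on chromosome 4, was lower at -0.56 (SE 0.11). These are older mouse symbols, and the chromosome 4 locus is the counterpart of the human gene PGM1. The glycogen phosphorylases Pygb (-0.96, SE 0.10) and Pygm (-0.75, SE 0.10) and the laforin gene Epm2a (-0.77, SE 0.23) were lower. The call of Epm2a was lost in 8 of 18 alternatives, among them library size only (-0.52, edgeR adjusted p of 0.0730), no count filter and the fits without I/R replicate 2 or any 1 sham library.

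Neuronal markers fell alongside these lists. Their summed level was 2353, 4448 and 4832 CPM in I/R replicates 1, 2 and 3 and 8167 to 8460 CPM in sham, and 6 of 8 were lower and 0 higher. Pfkl and Eno2 were lowest in I/R replicate 1, where the neuronal sum was lowest too. Their part in the result was not tested. Astrocyte markers had a summed level of 4455 to 4736 CPM in I/R and 4549 to 4923 CPM in sham, with 2 of 8 higher, Gfap and Aqp4 (lost in 7 of 18 alternatives), and 5 lower. Of the other lists, oligodendrocytes had 1 of 8 higher and 3 lower (6466 to 7580 CPM in I/R, 7597 to 9373 in sham), microglia 2 of 8 higher and 4 lower (256 to 347 and 262 to 294 CPM), pericytes 2 of 7 higher and 3 lower (189 to 205 and 215 to 224 CPM), striatum 2 of 8 higher and 1 lower (88.6 to 120 and 99.2 to 132 CPM) and choroid plexus 0 of 9 higher and 1 lower. Among all genes tested, 21.8% were higher and 19.9% lower, or 34.1% and 10.9% with library size only. The scaling moved the counts of the marker lists. Without a composition factor, oligodendrocytes had 2 higher and 0 lower, pericytes 3 and 0, microglia 3 and 3, astrocytes 3 and 4, striatum 2 and 0 and choroid plexus 0 and 0, while neurons still had 6 lower. Hippocampal markers were lower in 7 of 8. The erythrocyte gene tested, Alas2, was not called, and no listed marker was at 0 in all 6 libraries.

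Ndrg1, a stress and HIF target that in the brain is abundant in oligodendrocytes, was the member that fell (chromosome 15, 64125042 to 64165422). It had 2405, 1724 and 2242 counts after I/R against 2922, 3500 and 2904 in sham, or 52.8, 43.1 and 56.1 CPM against 74.8, 86.1 and 84.4 CPM. Every I/R library was below every sham library. The log2 fold change was -0.69 ± 0.12 (SE, adjusted p = 0.00301, edgeR), and the 18 alternatives, all called lower, gave -0.84 to -0.43. The summed oligodendrocyte markers, given above, were lower in each I/R library than in each sham library in TMM-scaled CPM, but with library size only they overlapped (6893 to 8732 CPM in I/R, 6896 to 8605 CPM in sham). Their part in the result was not tested.

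All 4 genes of the NDRG family were lower. Ndrg3 was at -1.21 (SE 0.25, adjusted p = 0.00653, edgeR), Ndrg4, a neuronal gene, at -1.0 (SE 0.21, adjusted p = 0.00737, edgeR) and Ndrg2, an astrocyte gene, at -0.41 (SE 0.14, adjusted p = 0.0471, edgeR), the last lost in 13 of 18 alternatives. Ndrg1 held 6.33, 3.91 and 4.81% of the family's summed FPKM after I/R against 3.87, 4.28 and 4.44% in sham, so the groups overlapped (p = 0.4 by exact permutation, two-sided). The share of Ndrg1 in its family thus differed by less than the spread between the I/R libraries.

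Other textbook HIF targets moved in both directions. Of 25 tested, 9 were higher and 4 lower, where 21.8% and 19.9% of all genes were, and their median was 0.00. With library size only, 11 were higher and 1 lower and the median was 0.27. Those higher included Lox, a collagen cross-linking enzyme (3.27, SE 0.38), Edn1, the precursor of the vessel-narrowing peptide endothelin (3.09, SE 0.42), and Stc2 (1.68, SE 0.19). Ero1a, Plod1, Plod2, Pdgfb and Kdm3a were also higher. Bnip3, a mitophagy gene (-0.41, SE 0.09), Mxi1 (-0.42, SE 0.08), Ak4 (-1.29, SE 0.26) and Vldlr (-0.38, SE 0.09) were lower. Calls were lost in 6 of 18 alternatives for Vldlr, 5 for Kdm3a, 4 each for Bnip3, Mxi1 and Pdgfb and 3 for Plod1, the lower ones with library size only and Vldlr, Kdm3a, Pdgfb and Plod1 when sham replicate 1, among other libraries, was left out. Ddit4, Higd1a, P4ha1, P4ha2, Car9 and Ankrd37 were not called. The GO term response to hypoxia had 114 tested genes, 29 higher and 34 lower, with a median of -0.08. This turned to 39 higher and 14 lower with library size only, with a median of 0.17.

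**Figure D5:**
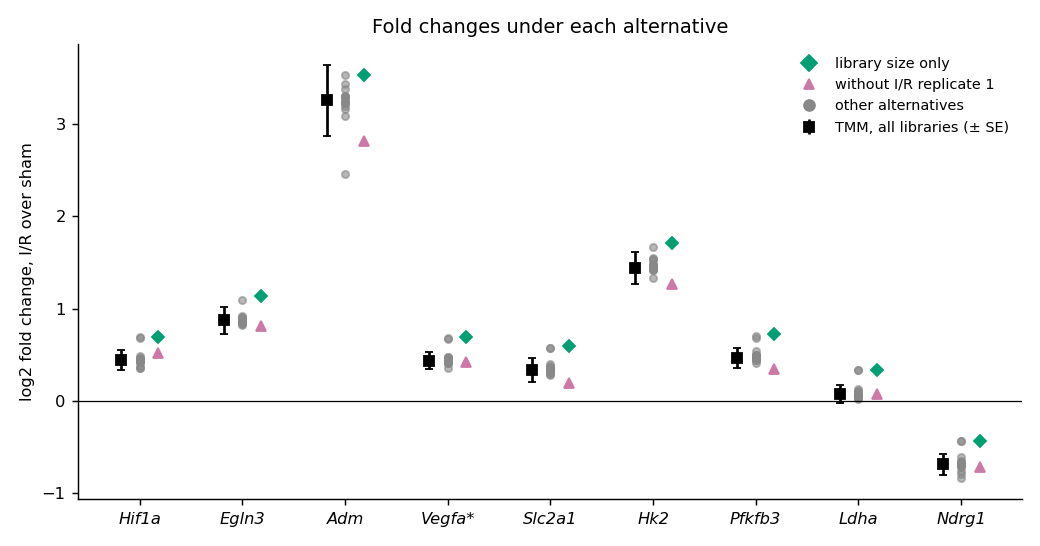
Log2 fold change of I/R over sham for each gene with TMM scaling and all libraries (black squares, ± SE), with library size only (green), without I/R replicate 1 (pink) and in the other alternatives (grey); the asterisk marks the Vegfa row identified from its KEGG text. No gene crosses 0, library size only lies above the TMM value for every gene, and Adm spreads most, from 2.46 to 3.54.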

How the data were processed

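Gene expression was measured by RNA-seq in 6 libraries of mouse hippocampus, 3 I/R and 3 sham, grouped by their labels. The authors aligned reads with TopHat2 to an Ensembl genome and obtained gene counts with HTSeq; the submitters' processing notes name Bowtie 0.12.2 and mm8. The deposited counts are raw read counts per gene. Of 41386 rows (4 broken lines were rejoined), 40303 had identifiers of the BALB/cJ strain, although the labels name C57BL/6, and 1083 were loci the authors assembled; coordinates are those of the table. The deposited FPKM were computed by the authors from these counts with a fixed length per gene. This length equalled the length column for 23.2% of the 11176 genes with over 200 counts in every library. Columns with the authors' fold change, p-value and call were not used. Whether counting used the strand is not given in the sources used here.

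Counts were tested with edgeR 4.0.16 (R 4.3.3): filterByExpr, TMM, quasi-likelihood F-test, Benjamini-Hochberg adjustment over 18569 genes. Genes were called when the adjusted p was under 0.05 with a fold change above 1.2 in either direction. SE is the log2 fold change divided by the square root of F. The procedure was tested on simulated counts with 200 genes changed in both directions. These counts had no shift in composition, so the test does not bear on the choice of scaling. CPM are relative to TMM-scaled library sizes. Family shares used FPKM and exact two-sided permutation tests. PCR copies were not assessed. Alternatives were DESeq2 1.42.0, limma 3.58.1, other scalings, filters, call rules and covariates, and each library left out. Sequence shared with other genes was read from GENCODE M21 and promoters from RefSeq.

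The members and gene lists were chosen with earlier results of these data known. Of 215 listed genes 207 were found. The genes named were the members, their paralogs, and from each pathway list up to 4 called genes with the largest change whose groups did not overlap (1 result that this rule gave is not reported here); other genes named (such as receptors, pathway steps and markers) were chosen for their role after the values were seen.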

Additional observations from a re-analysis of the deposited data

How the results depend on the processing

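Over 18 alternatives, 132 of the 144 fold changes of the 8 members kept their direction and their side of the threshold, and none reversed. Hif1a lost its call in 5 alternatives and Pfkfb3 in 1 (0.41, edgeR adjusted p of 0.0634, without sham replicate 3). Slc2a1 and Ldha were called higher in the 3 settings without a composition factor: 0.59 and 0.33 with library size only, 0.58 and 0.33 with log2 FPKM plus 0.1, and 0.57 and 0.33 with log2 FPKM plus 1. Members called higher numbered 3 to 5 when a library was left out (3 without sham replicate 3), 7 with library size only and 2 with a fold change over 2, where those lower numbered 0. Over all genes, a fold change over 2 gave 2760 calls, 1893 higher and 867 lower. Library size only gave 6334 higher and 2027 lower, log2 FPKM plus 0.1 gave 6286 and 2038, and log2 FPKM plus 1 gave 2015 lower. Without both libraries low in choroid plexus RNA, an alternative chosen after seeing the data, 2459 were lower. Leaving out a library gave 2426 (without sham replicate 2) to 3966 lower and 2904 to 4010 higher, fewer samples entering those fits. The difference in share was 4.91 points for Hk2 with CPM in place of FPKM, and 3.42 (CPM) and 3.21 (counts per length column, added later) points for Egln3.

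Calls in the pathway lists varied with the setting. Lower calls were 1 to 12 glycolytic enzymes, 0 to 6 glycolysis regulators, 2 to 8 transporters, 0 to 5 glycogen genes, 0 to 4 vascular genes, 1 to 6 other HIF targets, 0 to 2 HIF pathway genes and 1 to 4 NDRG genes. Higher calls were 2 to 3, 2 to 3, 0 to 4, 1 to 2, 3 to 10, 4 to 11, 0 to 6 and 0 in the same order.

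Paralogs that were not called changed sign. Under library size only, log2 FPKM plus 0.1 and log2 FPKM plus 1, Egln1 was at 0.038, 0.035 and 0.034, Egln2 at 0.037, 0.031 and 0.031, Hif3a at 0.18, 0.18 and 0.16, and Vegfc at 0.25, 0.23 and 0.15. Vegfc was also at 0.016 with at least 10 counts in every library and at 0.018 by the upper quartile. Epas1 had -0.0049 by DESeq2, -0.0012 by limma-voom and -0.0076 when no count filter was applied. Leaving out a library in turn gave -0.049 to 0.55 for Pfkfb1, -0.15 to 0.11 for Vegfc, -0.14 to 0.11 for Epas1 and -0.16 to 0.028 for Hif3a. The cause of these changes was not tested.

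The labels do not say whether the replicate numbers pair the libraries. Deviations of same-numbered libraries from their group means correlated at -0.10, 0.06 and -0.18, and those of differently numbered ones at -0.17 to 0.27. So few libraries cannot show whether they were paired. With the replicate block 6332 genes were called, 6254 of them shared with the fit without it, and 5 members were higher and 1 lower. With 3 libraries a group no permutation p can pass 0.05.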

Other observations

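In 3 metabolic genes on the lists, the lowest library of each group was the one low in choroid plexus markers. These genes were picked after their values were seen. Slc2a12, a glucose transporter, was at 11.3, 15.7 and 3.38 CPM in I/R replicates 1, 2 and 3 and 4.17, 18.7 and 32.9 CPM in sham, Slc16a8, a lactate transporter, at 3.14, 2.75 and 0.80 CPM and 0.896, 5.73 and 7.32 CPM, and Car12, a carbonic anhydrase, at 23.2, 48.6 and 21.4 CPM and 36.9, 60.7 and 73.6 CPM. In each, I/R replicate 3 and sham replicate 1 were the lowest library of their group, as for Ttr, the leading choroid plexus marker, at 20.3 CPM and 9.86 CPM there. In Car12, I/R replicate 1 was close to replicate 3 and below every sham library. None of the 3 was called.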
